A study of Mus musculus with 4 samples.

Results

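Near-complete m6A sites inside genes were positions at which at least 90% of the A and G reads were still A in both untreated libraries, with at least 20 such reads in each. They were taken from positions that the deposited tables place in a named gene, leaving out the mitochondrial chromosome, predicted genes with a Gm number and named pseudogenes. This rule gave 1363 sites in 1155 genes, out of 1076788 positions listed in any of the 4 libraries. The members were selected on their untreated reads and levels, so those values are a description here. Their fate in the dTAG13 libraries, their spacing and the coverage of their genes were not used to choose them.

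The samples were day 6 retinal organoids differentiated from the Rx:GFP line, a reporter line for the retinal progenitor gene Rax, with FKBP12F36V-HA fused to the C-terminus of endogenous METTL3. All 4 libraries carry this knock-in. The 2 untreated libraries received no dTAG13 (0 h), and the 2 dTAG13 libraries were exposed to 125 nM dTAG13 for 8 h, a compound that sends proteins with the FKBP12F36V tag to the proteasome. The genotype entries of the labels name Mettl3, Mettl4, Mettl5 and Mettl6 in turn across the 4 samples, whereas the growth protocol, the line's name for the first sample and the design text name METTL3. METTL3 was accordingly read as the tagged protein throughout, and no protein level was measured. No library of organoids without the knock-in, or of that kind given dTAG13, was analysed here. The labels do not say whether the libraries came from separate cultures, and the values below therefore measure only the spread between these libraries.

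N6-methyladenosine is the most common internal modification of mRNA. It is written by a complex in which METTL3 is the catalytic subunit, METTL14 its partner, and WTAP, VIRMA, ZC3H13, RBM15 and CBLL1 regulatory subunits, and it is bound by YTH-domain proteins that act on splicing, translation and decay. In GLORI, glyoxal and nitrite convert unmethylated adenosine to inosine, which is sequenced as G, so a position's methylation level is its A reads over its A plus G reads. The chemistry does not separate m6A from N6,2′-O-dimethyladenosine at the cap.

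Across whole libraries, 335607 and 350462 sites were listed without dTAG13, and 220034 and 263069 sites were listed with it. No listed site had fewer than 15 reads, fewer than 5 A reads or a level below 10%, and these values are taken as the listing limits. The caller's own rule is not given. An unlisted position can therefore be unmethylated, below these limits, uncovered, or above them and left out by the caller. The A and G reads summed over listed sites came to 52195855 and 54905380 without dTAG13 and to 30102136 and 45966738 with it. Coverage values come with listed sites, so a gene with no listed site in a library has none there, whatever its expression. Covered below means having such a value. Of 11 retinal and eye-field genes, among them Rax, Pax6, Six3, Six6 and Lhx2, all had a coverage value in every library. These ran from Fgf15 (42.1 to 50.6) to Sfrp2 (1174 to 2407). All 6 pluripotency genes were covered too, on the same unnormalised gene coverage. The highest were Dppa5a (283 to 525) and Nanog (167 to 221), and the lowest was Tdgf1 (37.3 to 64.0). Of 5 neuron markers, Tubb3 (143 to 244) and Stmn2 (39.6 to 45.0) were covered in all 4 libraries, Elavl4 in 3, and Elavl3 and Dcx in 1 each. Of 5 pigment epithelium markers, Mitf, Dct and Pmel were covered in all 4 libraries, between 72.1 and 151, Tyr in 1 and Rpe65 in none. Of 5 mesoderm and endoderm markers, Sox17 was covered in all 4 libraries (26.0 to 69.8), Gata4 in 2, Foxa2 and Gata6 in 1 each and T in none. The part of such cells in the results was not tested.

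Almost all genes with near-complete sites were protein-coding. Of the 1155 genes, 1154 matched a symbol in the RefSeq gene table, and 1142 of them (98.9%) were protein-coding, 11 were long noncoding RNAs and 1 was a transcribed pseudogene. The noncoding members included 2 sites in Tug1 and 1 each in Dancr, Ftx and Oip5os1. The sites lay on both strands, 716 on plus and 647 on minus, and were spread over all autosomes and the X chromosome, from 118 on chromosome 2 to 28 on the X. For 14 sites in 13 genes, among them Kat6b, Polr2d, Apc and Bmp4, the RefSeq gene table also names a pseudogene of that gene. These values are uncertain because reads can be shared with the copy. Copies named with a Gm number were not looked for.

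Most members sat at the top of the scale. The median untreated level was 100% in both libraries, 711 and 686 sites had no G read at all, and 428 sites (31.4%) had none in either library. Members had a median depth of 58 and 65 reads, and 806 of the 1363 sites had fewer than 50 in at least 1 untreated library. The median conversion rate of their genes, the share of all A read as G, was 95.3% and 95.6% in the untreated and 96.9% and 96.8% in the dTAG13 libraries, so all 4 values lay within 2 percentage points.

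The best-covered member, at chr8:85569182 (minus strand) in Calr, which encodes the endoplasmic reticulum chaperone calreticulin, had 12063 and 11639 reads and a level of 94.4% and 92.6% in the untreated libraries. It was not listed in either dTAG13 library, although Calr coverage was still 1553 and 2221 there, against 3038 and 2935. The next site, at chrX:59935308 (minus strand) in Sox3, a SOX-family transcription factor of neural progenitors, had 4483 and 5247 reads at 99.8% and 95.8%. The Sox3 site was likewise unlisted in both dTAG13 libraries, where the gene's coverage was 798 and 1038 against 1012 in each untreated library. Calr and Sox3 were thus still covered as genes where their deepest near-complete site was no longer listed. Gene coverage does not give the depth at the site. Neither site had another listed position of at least 20 reads within 50 nt in the dTAG13 libraries.

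Of the 10 best-covered members, 1 per gene, 7 were absent from both dTAG13 tables and 3 were present in 1. Besides Calr and Sox3, those absent from both lay in G3bp1, a core protein of stress granules, in Pym1, a partner of the exon junction complex, in Polr2d, a subunit of RNA polymerase II, and in 9530068E07Rik and 2810006K23Rik. The G3bp1 site, at chr11:55390595 (plus strand), had 2606 and 3329 reads at 90.4% and 90.1%, close to the 90% limit. The Pym1 site, at chr10:128602150 (plus strand), stood at 96.2% and 93.0% with 1587 and 1608 reads. Other positions within 50 nt of the Pym1 site were listed with a median of 616 and 423 reads in the dTAG13 libraries, so this stretch of the RNA was sequenced there. For 2810006K23Rik, at chr5:124479726 (plus strand), the level was 100% and 99.8% with 1091 and 1308 reads, and the neighbouring positions had 824 and 356.5 reads with dTAG13. Near the 9530068E07Rik site they had 1866.5 and 3240 reads with dTAG13. The G3bp1 and Polr2d sites had no other listed position of at least 20 reads within 50 nt in either dTAG13 library.

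The other 3 were listed once with dTAG13, each at a low level. Puf60, a splicing factor, had a site at chr15:75942157 (minus strand) at 94.1% and 96.3% without dTAG13 and at 10.5% over 1244 reads in dTAG13 replicate 1. Dph3, which acts in diphthamide synthesis, had a site at chr14:31804908 (minus strand) at 96.0% and 97.2%, and at 15% over 1404 reads in the same dTAG13 library. Peg10, an imprinted gene derived from a retrotransposon, had a site at chr6:4758435 (plus strand) at 95.2% and 100%, and at 27.6% over 1777 reads in dTAG13 replicate 2. In all 3 genes the dTAG13 reading was below both untreated readings.

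Near-complete sites were common in every single library but were shared mainly by the untreated pair. With the same limits on reads and level, 32137 and 30897 sites inside genes were near-complete without dTAG13, and 24757 and 31066 were so after it. The 1363 members were thus 4.24% and 4.41% of the near-complete sites of each untreated library. In every library 63.6% to 67.5% of the near-complete sites had only A reads, and their median depth was 35 to 41 reads. Most sites at this level in 1 library were therefore not found again, treated or not.

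Applied to the other pairs of libraries, the same rule gave 170, 179, 153 and 217 sites for the 4 pairs of 1 untreated and 1 dTAG13 library and 121 for the dTAG13 pair. The plot of sites shared by each pair shows these counts. A single dTAG13 library held 24757 or 31066 near-complete sites, near the numbers of a single untreated library, so the pairs differed mainly in what was shared. Of the 121 sites of the dTAG13 pair, 10 were listed in untreated replicate 1, 18 in untreated replicate 2 and 6 in both, against 162, 175 and 60 of the 1363 for the reverse.

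**Figure D1:**
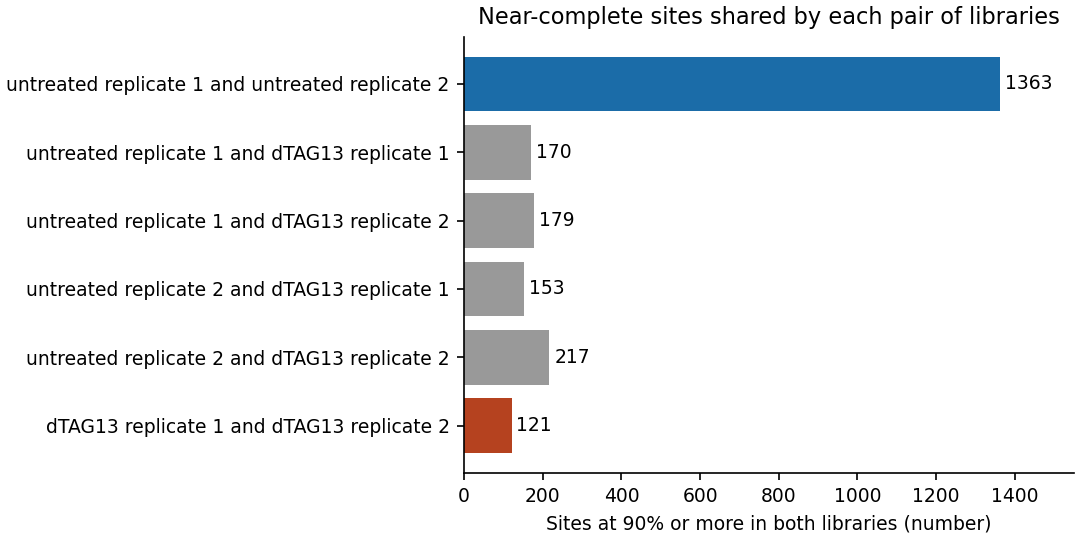
Number of sites inside genes at 90% or more with at least 20 reads in both libraries of a pair, for all 6 pairs. The untreated pair shared 1363 sites, the 4 mixed pairs 153 to 217 and the dTAG13 pair 121.

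To set the dTAG13 libraries beside a background measured the same way, sites were chosen in 1 untreated library and looked up in the 3 others. Of the 32137 sites near-complete in untreated replicate 1, untreated replicate 2 listed 9.10% (Wilson 95% interval, 8.80 to 9.42%), with 2.41% (2.25 to 2.59%) listed in the first dTAG13 library and 2.58% (2.41 to 2.76%) in the second. With untreated replicate 2 as the reference, the share was 8.51% (8.2 to 8.82%) in untreated replicate 1 and 2.31% (2.15 to 2.48%) and 2.79% (2.61 to 2.98%) in the dTAG13 libraries. The mean dTAG13 share was 0.274 and 0.300 of the untreated background, and in both cases the dTAG13 intervals lay below the background interval. Whether reads are independent molecules is unknown, so these intervals cover counting error only, and with 1 background library for each reference no test across libraries was possible.

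The sites found again also stood at different levels. The median level of the recovered sites was 90.9% and 95.2% in the other untreated library and between 43.1% and 45.5% in the dTAG13 libraries. Counting only those still at 90% or more, the share was 4.63% in the other untreated library against 0.650% and 0.641% with dTAG13, a ratio of 0.139. With untreated replicate 2 as the reference it was 4.82% against 0.612% and 0.793%, a ratio of 0.146. The ratio was thus lower for keeping the level than for being listed at all.

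Recovery was higher at deeper sites, and the other untreated library stood above both dTAG13 libraries in every read class. Among 686 sites with 200 or more reads in untreated replicate 1, 43.0% (39.3 to 46.7%) were listed in untreated replicate 2, against 12.8% (10.5 to 15.5%) and 13.6% (11.2 to 16.3%) with dTAG13. At 90% or more these shares were 23.2%, 1.02% and 0.875%. Among 624 such sites of untreated replicate 2, 47.4% (43.5 to 51.4%) were listed in untreated replicate 1, and 13.9% and 14.7% with dTAG13. Even at this depth, more than 50% of the sites near-complete in 1 untreated library were missing from the other.

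**Figure D2:**
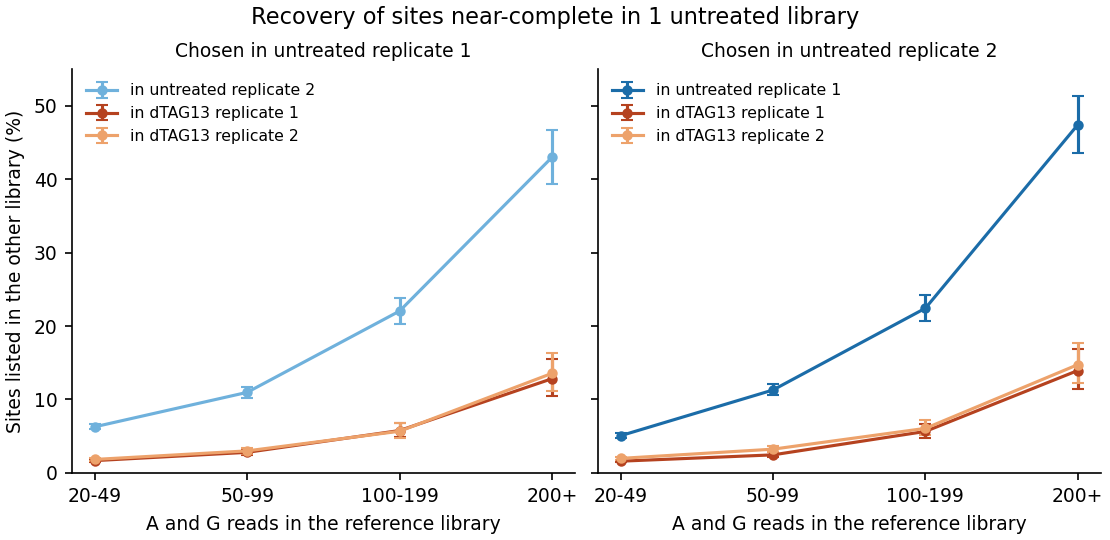
Share of sites near-complete in 1 untreated library that were listed in each other library (vertical axis, percent), by the A and G reads in the reference library (horizontal axis). Points are shares, bars are Wilson 95% intervals, and lines join the points of 1 library. At 200 or more reads the other untreated library stands at 43.0% and 47.4% and the dTAG13 libraries between 12.8% and 14.7%.

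The dTAG13 tables list fewer sites, and sites chosen in them gave a ratio above 1. Of sites near-complete in dTAG13 replicate 1, 3.04% and 3.04% were listed in the untreated libraries and 1.98% in dTAG13 replicate 2, a ratio of 1.53. For dTAG13 replicate 2 the shares were 2.77% and 3.0% against 1.66%, a ratio of 1.73. Each untreated library thus held more of these sites than the second dTAG13 library of the pair did, and their median level in the untreated libraries was 38.0% to 41.7%.

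The members themselves were mostly missing after dTAG13. Of the 1363 sites, 162 (11.9%, 10.3 to 13.7%) were listed in the first dTAG13 library and 175 (12.8%, 11.2 to 14.7%) in the second. Both libraries listed 60 of them (4.40%), 1 library listed 217 (15.9%) and neither listed 1086 (79.7%). Being listed in both untreated libraries was part of the choice, so these shares have no untreated counterpart. In bulk libraries such as these, fewer cells of a type and less RNA per cell cannot be told apart.

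Where members were listed after dTAG13, their levels ran over the whole range. In dTAG13 replicate 1, 28 of 162 stood at 90% or more, 54 at 40 to 90% and 80 at 10 to 40%, with a median of 40.7%. In dTAG13 replicate 2 the numbers were 32, 47 and 96 of 175, with a median of 37.4%. The median depth at these listed sites was 96.5 and 129 reads, above the median of 58 and 65 for all members without dTAG13. The listed members were already deeper without dTAG13, so this does not compare the same sites. Their median read count in the shallower untreated library was 78 when both dTAG13 libraries listed them and 60 when 1 did. It was 39 for members that neither listed. A level under 40% was thus the most frequent outcome among the listed sites in both dTAG13 libraries.

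Deeper members were listed more often and at lower levels. Among 806 members with 20 to 49 reads in the shallower untreated library, 7.57% and 8.19% were listed with dTAG13, with a median level of 57.7% and 51.3%. Among 99 members with 200 or more reads, 23.2% (16.0 to 32.5%) and 25.3% (17.7 to 34.6%) were listed, with a median level of 16.9% and 18.1%. Between 50 reads and 200 reads, in 2 classes, 15.1% to 20.8% were listed with medians of 25.4% to 48.5%. As listed sites had at least 5 A reads, a site with few reads could be listed only at a higher level. The medians of shallow and deep classes can thus have different floors, and they do not measure the size of a fall. Members with only A reads in both untreated libraries were listed at 7.48% in each dTAG13 library, and the other 935 at 13.9% and 15.3%. These groups were not matched on depth, so their shares do not separate level from depth.

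Sites on either side of the 90% limit are given as a description. The 92 members with a level of 90 to 92% in at least 1 untreated library were listed at 16.3% and 15.2%. The 70 sites just outside, at 88 to 90%, were listed at 14.3% and 18.6%, with wide intervals that overlap. The median level of the listed sites was 49% and 37.8% inside the limit and 20.1% and 21.0% outside it, from 10 to 15 sites each.

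For some of the unlisted members the tables themselves show that the RNA was sequenced close by. Another listed position with at least 20 reads lay within 50 nt of 58.5% and 58.0% of the members without dTAG13, and of 33.6% and 37.3% after it. Of the 1201 members unlisted in dTAG13 replicate 1, 352 (29.3%) had such a neighbour, with a median of 94 reads. Of the 1188 unlisted in dTAG13 replicate 2, 401 (33.8%) had one, with a median of 115 reads. Among the 223 members with a neighbour in both dTAG13 libraries, 136 (61.0%) were unlisted in both. For the other unlisted members the tables give no reading of local depth.

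The 60 members listed in all 4 libraries allowed a direct comparison of levels. Their median was 98.9% without dTAG13 and 40.7% with it, and the median difference was -57.9 percentage points. Both dTAG13 levels lay below both untreated levels at 48 of the 60 (80%), while the same order held at 19.1% of all 2493 sites listed in 4 libraries. Because the untreated levels of the members were chosen to be close to 100%, this count is a description and not a test. At 18 of the 60 both dTAG13 levels were between 10 and 40%, at 5 both were 90% or more, and the other 37 had other combinations of levels.

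**Figure D3:**
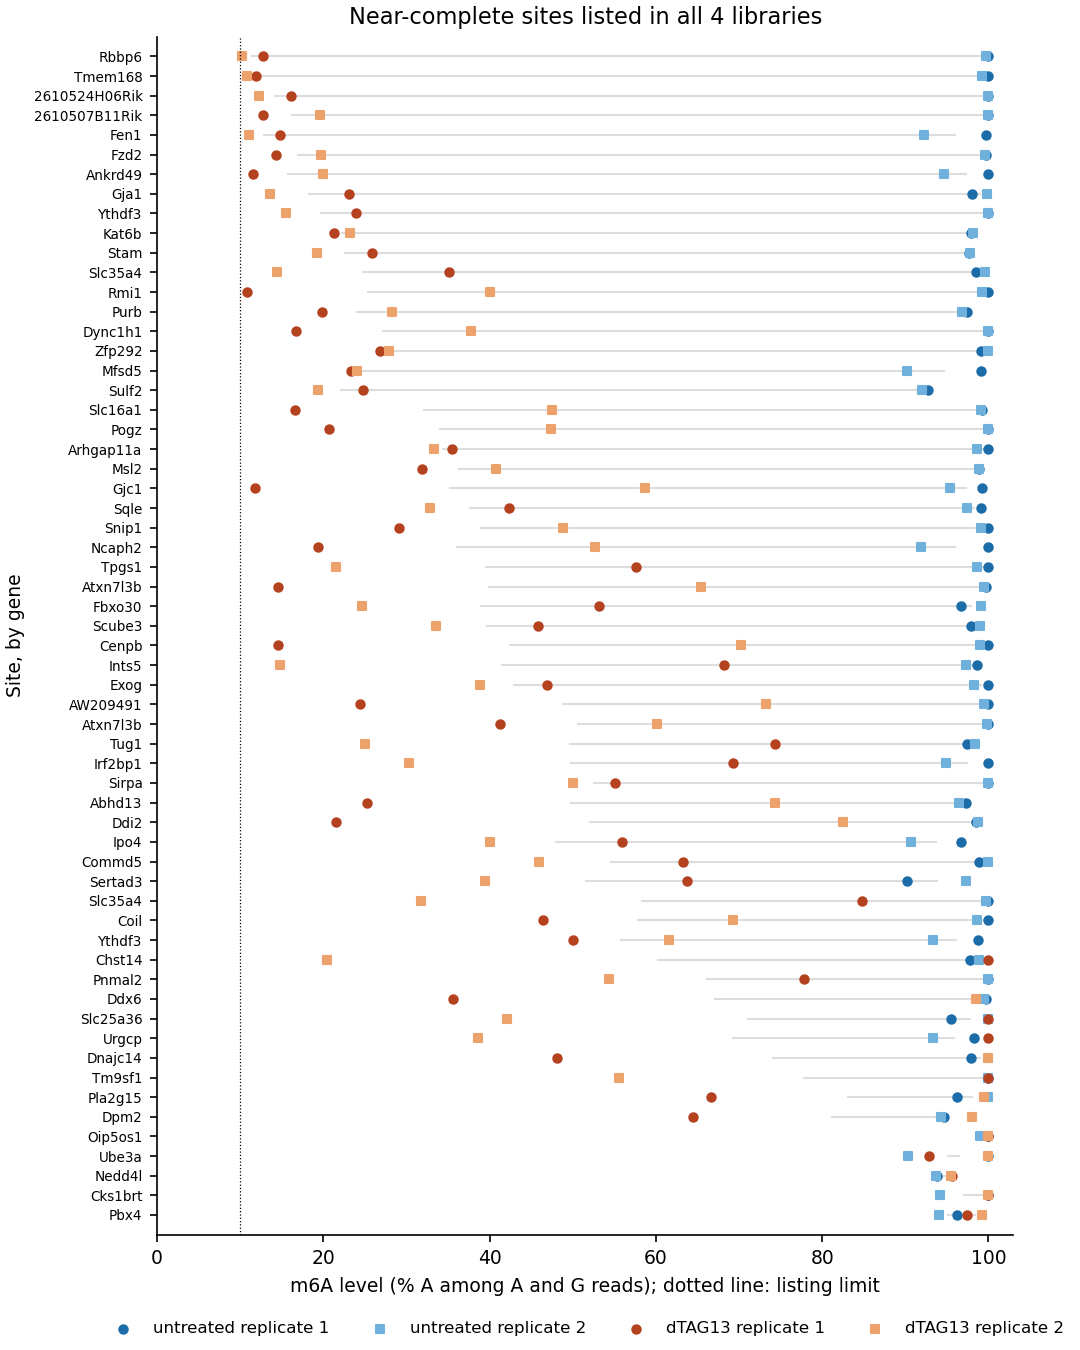
m6A level (horizontal axis, percent of A among A and G reads) of the 60 near-complete sites listed in all 4 libraries, 1 row per site labelled by gene and ordered by the difference between group means. Circles and squares are replicates 1 and 2, blue for untreated and orange to red for dTAG13, grey lines join the group means, and the dotted line marks the 10% listing limit. All untreated points lie at 90% or more, and the dTAG13 points range from just above 10% to 100%.

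The widest differences were in genes of several kinds. Among sites with at least 50 reads in every library, those in Rbbp6, 2610524H06Rik, 2610507B11Rik, Fen1 and Fzd2 led, with differences of -88.4 to -82.7 points. Next came Ankrd49, an ankyrin-repeat gene, at chr9:14692443 (minus strand), with 100% and 94.6% before and 11.5% and 20% after dTAG13. In Gja1, which encodes the gap junction protein connexin 43, the site at chr10:56264232 (plus strand) stood at 98.1% and 99.8% without dTAG13 and at 23.0% and 13.6% with it. The groups did not overlap in either gene, with means of 97.3% ± 3.79 and 15.8% ± 6.0 for Ankrd49 and of 99% ± 1.26 and 18.3% ± 6.68 for Gja1 (SD, n = 2 each).

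The remaining 3 of the 10 widest differences lay in Kat6b, Stam and Slc35a4. Kat6b, a histone acetyltransferase with a named pseudogene copy and therefore uncertain, went from 97.9% and 98.2% to 21.3% and 23.1% at chr14:21721207 (plus strand). Stam, a component of endosomal sorting, went from 97.7% and 97.8% to 25.9% and 19.2% at chr2:14151431 (plus strand). Slc35a4, of the nucleotide-sugar transporter family, went from 98.5% and 99.6% to 35.1% and 14.4% at chr18:36815866 (plus strand). The 2 dTAG13 libraries were close to each other for Kat6b and Stam and 20.7 points apart for Slc35a4.

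Replicates of the dTAG13 group often differed at the same site. At 15 of the 60 sites the 2 dTAG13 levels were at least 40 points apart, among them sites in Ddx6, Ints5, Tug1 and Cenpb. The site in Ddx6, an RNA helicase of processing bodies, at chr9:44548389 (plus strand) stood at 99.7% and 99.5% without dTAG13 and at 35.6% and 98.5% with it, over 236 and 273 reads. In Dpm2, a subunit of dolichol-phosphate mannose synthase, the site at chr2:32463143 (plus strand) stood at 94.7% and 94.3%, and at 64.4% and 98.0% with dTAG13. For Ddx6 and Dpm2 the second dTAG13 library was at or near the untreated levels and the first was not. The spread of the dTAG13 group was 67.1% ± 44.5 for Ddx6 and 81.2% ± 23.7 for Dpm2 (SD, n = 2). In Pnmal2, a gene of the PNMA family, the site at chr7:16681044 (plus strand) stood at 100% in both untreated libraries and at 77.9% and 54.4% with dTAG13, both below the untreated level.

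A small group kept its level. The 5 sites at 90% or more in all 4 libraries lay in Oip5os1, Ube3a, Nedd4l, Cks1brt and Pbx4, named here after their values were seen. In Pbx4, a TALE homeobox gene, the site at chr8:70324674 (plus strand) stood at 96.2% and 94.1% without dTAG13 and at 97.5% and 99.2% with it, while its gene coverage, 158 and 145 without dTAG13, stood at 62.1 and 40.1 after it. In Nedd4l, a ubiquitin ligase, the site at chr18:65020537 (plus strand) stood at 93.8% and 93.7%, and at 95.7% and 95.5% with dTAG13, over 92 to 156 reads. Neither Pbx4 nor Nedd4l had another listed position of at least 20 reads within 50 nt in any library.

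The other 3 sites that stayed near-complete were shallower. Oip5os1, a long noncoding RNA, stood at 100%, 99%, 100% and 100% at chr2:119430182 (plus strand) in the untreated and then the dTAG13 libraries, with 23 to 100 reads. Ube3a, a ubiquitin ligase gene that is imprinted in neurons, stood at 100%, 90.3%, 92.9% and 100% at chr7:58926527 (plus strand), with 16 reads in the last. Cks1brt stood at 100%, 94.2%, 100% and 100% at chr8:85898519 (plus strand), and as the name marks it as a retrotransposed copy of Cks1b its reads can be shared with that gene. The groups overlapped at all 3 of these sites.

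A per-site test was run on all 2321 sites listed in 4 libraries with at least 20 reads in each, inside and outside genes. A quasi-binomial model, its dispersion moderated with limma, called 53 sites at an adjusted p under 0.05, 51 of them lower with dTAG13, which is 2.2% of the sites tested. Of the 60 members, 58 could be tested, and 25 of the 51 lower sites were members. The members' median difference was -58.9 points, against 0.104 points over all sites tested. Since the untreated levels that enter the test also chose the members, no support is drawn from their share. Without any 1 of the 4 libraries the model called 0 sites, with 196 to 217 at an unadjusted p under 0.05, while edgeR's quasi-likelihood test on all libraries called 52 and limma on log2 odds 41.

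Members tended to be alone in their gene, and 165 genes held more than 1. A single member was found in 990 genes, 2 in 130, 3 in 29, 4 in 5 and 6 in 1. Neighbouring members of a gene were a median of 378 nt apart on the genome over 208 pairs, with 37 pairs (17.8%) within 100 nt and 7 within 10 nt. For sites inside genes at 40 to 90% in both untreated libraries the median was 446.5 nt over 350 pairs, and 16.3% lay within 100 nt. For sites at 10 to 40% the median was 574 nt over 7105 pairs, and 23.3% lay within 100 nt. These distances include introns, and they are given without a test because pairs of 1 gene share its transcript.

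The closest pairs had nearly equal read numbers and levels. In Ccdc32, positions 118848976 and 118848980 of chromosome 2 (minus strand), 4 nt apart, stood at 92.3% and 92.2% in untreated replicate 1 and at 100% and 99.3% in untreated replicate 2. In Lrfn3, a neuronal adhesion protein gene, positions 30061671 and 30061676 of chromosome 7 (minus strand), 5 nt apart, were at 100% in both libraries. In Cdc42ep1, which encodes an effector of CDC42, positions 78733542 and 78733548 of chromosome 15 (plus strand), 6 nt apart, were likewise at 100%. None of these 6 sites was listed after dTAG13, and members this close are not independent readings.

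Genes with several members showed different outcomes within 1 transcript. Ints5, which encodes a subunit of the Integrator complex, held the most, with 6 sites between positions 8872501 and 8874228 of chromosome 19 (plus strand). All 6 stood at 96.0% to 100% without dTAG13. With dTAG13, 2 were unlisted in both libraries, 1 was listed only at 62.7%, 1 only at 100% over 30 reads and 1 only at 37.4%. The sixth, at position 8874228, was listed in both, at 68.2% and 14.7%.

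Slc35a4 held 4 members within 370 nt, between positions 36815503 and 36815873 of chromosome 18. The first was unlisted with dTAG13, the second was listed in 1 library at 30.2%, and the last pair, 7 nt apart, was listed in both. At position 36815873 the level was 100% and 99.7% in the untreated libraries, then 84.8% and 31.8% with dTAG13, above the neighbouring site at 36815866 in both dTAG13 libraries. Slc35a4 thus had 2 sites, with 305 and 302 reads in dTAG13 replicate 1 and 278 and 277 in dTAG13 replicate 2, whose levels differed with dTAG13 and not without it.

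The other genes with 4 members differed in how many sites were unlisted in both dTAG13 libraries, from all 4 in Rab36 and 3 in Mex3b to 2 in Pla2g15 and 1 in Zfp292. Rab36, which encodes a small GTPase, held 4 within 581 nt of chromosome 10, at 95.2% to 100% over 20 to 47 reads, and none was listed with dTAG13, where gene coverage was 43.5 and 91.5 against 50.8 and 41.8. Mex3b, an RNA-binding KH-domain protein gene, held 4 within 1647 nt of chromosome 7, of which 1 was listed with dTAG13, at 13.9% over 72 reads. Pla2g15, which encodes a lysosomal phospholipase, held 4 within 593 nt of chromosome 8, of which 1 stood at 66.7% and 99.4% and another at 49% in 1 library. Zfp292, a zinc finger gene tied with these and named after the fact, had 4 within 5054 nt of chromosome 4, of which 3 were listed in dTAG13 replicate 2, at 24.9% to 70.2%. Over all genes, 15% and 19.6% of the 373 members that share a gene were listed with dTAG13, and 10.7% and 10.3% of the 990 that do not.

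**Figure D4:**
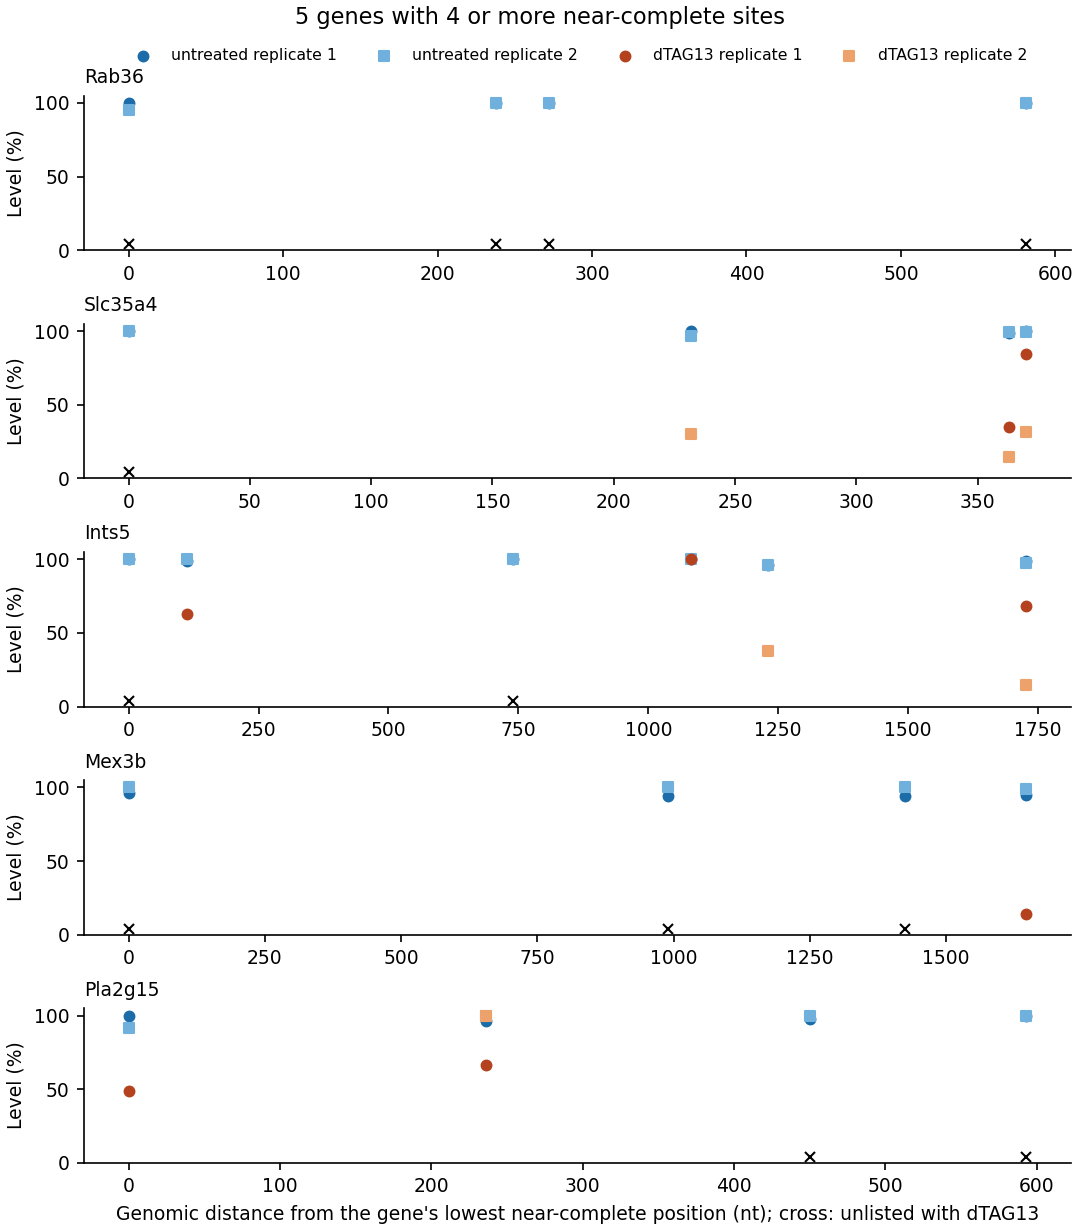
Levels (vertical axis, percent) of near-complete sites in 5 genes that hold 4 or 6 of them, by genomic distance from the lowest position (horizontal axis, nt). Circles and squares are replicates 1 and 2, blue for untreated and orange to red for dTAG13, and a cross marks a site unlisted in both dTAG13 libraries. Untreated points lie at 90% or more at every site, while dTAG13 points lie between 13.9% and 100% or are missing.

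Some genes of the m6A machinery carried near-complete sites, as did 1111 of the 12520 genes of any kind covered in all 4 libraries. The same share stands beside the counts of the gene lists below, none of which was tested. Of 8 writer genes, Cbll1, Rbm15 and Virma had 1 each, and Mettl3, Mettl14 and Wtap had none. The site of Cbll1, an E3 ligase subunit of the writer complex, at chr12:31538212 (minus strand) stood at 99.3% and 90.1% without dTAG13 and at 14.4% in dTAG13 replicate 1. The Rbm15 site, at chr3:107233127 (minus strand), stood at 99.2% and 100%, and the Virma site, at chr4:11513976 (plus strand), at 97.6% and 100%. Neither was listed with dTAG13, while the coverage of Virma was 82.7 and 112 there against 61.9 and 83.3.

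Of 12 readers and erasers, Ythdf3 had 3 members and Ythdf1, Ythdc1 and Alkbh5 had 1 each. The 3 sites of Ythdf3, a cytoplasmic m6A reader, lay within 614 nt of chromosome 3 (plus strand). At position 16258975 both untreated levels were 100%, and the dTAG13 levels were 23.9% and 15.6%. At position 16258433 it was 98.8% and 93.4%, and 50.0% and 61.6% with dTAG13, and position 16258361 was listed only in dTAG13 replicate 2, at 23.7% against 98.6% and 100%. All 5 dTAG13 readings in Ythdf3 lay below every untreated reading, while its coverage, 250 and 265 without dTAG13, was 240 and 295 after it.

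The readers and erasers with a single site differed in what the dTAG13 tables listed. Ythdf1, another cytoplasmic reader, had its site at chr2:180552763 (minus strand) at 100% and 100% over 43 and 29 reads, and it was unlisted with dTAG13. Ythdc1, the nuclear reader, stood at 96.0% and 95.2% at chr5:86976400 (plus strand) and at 100% over 45 reads in dTAG13 replicate 1. Alkbh5, a demethylase, stood at 100% and 99.5% at chr11:60445261 (plus strand) and was unlisted with dTAG13. Positions within 50 nt of the Ythdf1 site had 91 and 100 reads in the dTAG13 libraries, and near the Alkbh5 site 57 and 95.5.

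Signalling genes used in eye development also held members. Of 21 Wnt receptors, antagonists and regulators, 6 held 7 members: the Frizzled receptor genes Fzd1, Fzd2, Fzd3 and Fzd8, the co-receptor gene Lrp6 and the scaffold gene Axin2. Fzd3 stood at 100% and 92% over 250 and 363 reads at chr14:65490542 (minus strand), and Lrp6 at 100% and 100% over 193 and 158 reads at chr6:134427759 (minus strand). Neither was listed with dTAG13, and positions within 50 nt of the Fzd3 site had 33 and 518 reads there. Over the list, 4 members were unlisted with dTAG13, 2 were listed once (Fzd1 at 10.3% and a site of Fzd8 at 38.0%) and 1, in Fzd2, in both libraries.

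Hedgehog genes held 5 members, all unlisted in both dTAG13 libraries, as were 79.7% of all members. They lay in Smo, the signal transducer of the pathway, in Gli2 and Gli3, its transcription factors, and in Cdon, a co-receptor, out of 12 genes. The site in Smo, at chr6:29760111 (plus strand), stood at 93.7% and 99.4% over 457 and 353 reads, and the better covered of the pair in Gli3, at chr13:15901398 (plus strand), at 99.3% and 99.4%. Positions within 50 nt were listed with dTAG13 at 149 and 316 reads for Smo and at 207.5 and 265.5 reads for Gli3. Of 15 Notch genes only the receptor gene Notch2 held a member, at 100% and 93.6% without dTAG13 and 62.8% in dTAG13 replicate 1.

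Members in chromatin and cell-cycle genes are given by list, beside 1111 genes with members among the 12520 covered in all 4 libraries. Of 25 genes listed as chromatin regulators, the acetyltransferase gene Ep300 and the methyltransferase genes Kmt2d and Ehmt1 held members. So did Rbbp6, a ubiquitin ligase gene that was put on this list, and the list held 6 members with it. Kmt2d had 1 site listed at 53.7% in 1 dTAG13 library and 1 unlisted, and Ep300 stood at 93.1% and 96.3% and then at 59.0% in dTAG13 replicate 2. Rbbp6 held a second member 161 nt before the leading one, at 90.2% and 100%, which was unlisted with dTAG13. Of 25 DNA replication genes only Fen1 held a member, and of 19 genes of the G1/S transition only Ccne1, at 99.4% and 99.4% without dTAG13 and unlisted with it.

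None of the 11 retinal and eye-field genes, the 18 hnRNP genes, the 6 pluripotency markers, the 5 neuron markers and the 5 mesoderm and endoderm markers held a near-complete site. Among 5 pigment epithelium markers Mitf, a transcription factor of pigment cells, held 1, at chr6:97995301 (plus strand), with 98.5% and 99% over 132 and 408 reads, unlisted with dTAG13. These counts describe short lists, beside 1111 of 12520 genes with members, and were not tested.

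Near-complete sites were compared with the other sites that both untreated libraries listed. Of 2026 sites at 40 to 90% in 1676 genes, 8.05% (6.94 to 9.31%) and 8.84% (7.68 to 10.2%) were listed with dTAG13, at a median level of 22.5% and 22.2%. Of 12228 sites at 10 to 40% in 5123 genes, 15.2% (14.5 to 15.8%) and 15.6% (15 to 16.2%) were listed. The listed sites had a median of 17.0% and 17.4% with dTAG13, against 17.7% and 17.3% over all 12228 without it. In each set, sites below the 10% listing limit drop out of the dTAG13 medians, so these medians do not measure a change in level. The median depth without dTAG13 was 142 and 155 reads for the first set and 208 and 228 for the second, against 58 and 65 for the near-complete sites, so the shares are not matched on depth. Near-complete sites placed outside genes were listed more often: 43.5% (37.4 to 49.9%) and 48.5% (42.3 to 54.8%) of these 239 were listed with dTAG13, still at a median of 96.4% and 95.4%. Their median untreated depth was 39 and 44 reads, below that of the members inside genes, and the intervals of the listed shares inside and outside genes did not overlap. The sets were not filtered alike, as the mitochondrial chromosome was left out only inside genes.

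Within genes, near-complete sites were spread along the listed positions. Each site was given its rank from the 5′ to the 3′ end among all positions listed for its gene in any library, in percent, for genes with at least 10 such positions. The median rank was 46.2% for 1334 members, 61.1% for 2016 sites at 40 to 90% and 58.1% for 12167 sites at 10 to 40%. The first 20% of the positions held 16.7% of the members, 11.9% of the sites at 40 to 90% and 15.1% of those at 10 to 40%. It held 20.3% of all listed positions. The last 20% of the positions held 16.2% of the members, 27.4% of the sites at 40 to 90% and 25.2% of those at 10 to 40%, against 20.6% of all listed positions. The sets differ in depth and genes, so no test was made, and positions relative to stop codons or UTRs were not assigned here.

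The coverage of genes with members was compared in its own right, as the rule did not use it beyond the minimum of 20 reads at the site. Gene coverage is a single deposited value per gene and library, taken as log2 and centred on the median gene of each library. A gene has this value only in libraries that list a site of it. Of 12520 genes covered in all 4 libraries, limma called 0 (0%) at an adjusted p under 0.05, with 1044 lower (8.34%) and 551 higher (4.4%) at an unadjusted p under 0.05. Of the 1111 genes with members among them, limma likewise called 0, the smallest adjusted p being 0.363, with 31 lower (2.79%) and 60 higher (5.40%) unadjusted. No gene named here therefore has a coverage change that passed the test.

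The coverage differences of genes with members lay higher than those of all genes. The set of all genes includes those with members and was not limited to the kinds of gene that the member rule allows. Their median log2 difference, dTAG13 minus untreated, was 0.06, against -0.07 over all genes, and without centring it was -0.02 against -0.15, so its sign depends on the scaling, and as centring moves all genes alike it cannot change the gap between the medians. On the centred scale, both dTAG13 values were above both untreated values for 302 of the 1111 genes (27.2%), against 17% of all genes. They were below for 176 (15.8%), against 29.2%. The order of the uncentred coverage values can differ. The lowest unadjusted values included Ythdf1, covered at 226 and 212 in the untreated and 304 and 418 in the dTAG13 libraries, a log2 difference of 0.79 ± 0.20 (SE) and an adjusted p of 0.363 in limma. Pbx4 went the other way, with a log2 difference of -1.52 ± 0.37 (SE), also at an adjusted p of 0.363. Calr, whose leading site was unlisted with dTAG13, had a log2 difference of -0.60 ± 0.20 (SE) and an adjusted p of 0.364.

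**Figure D5:**
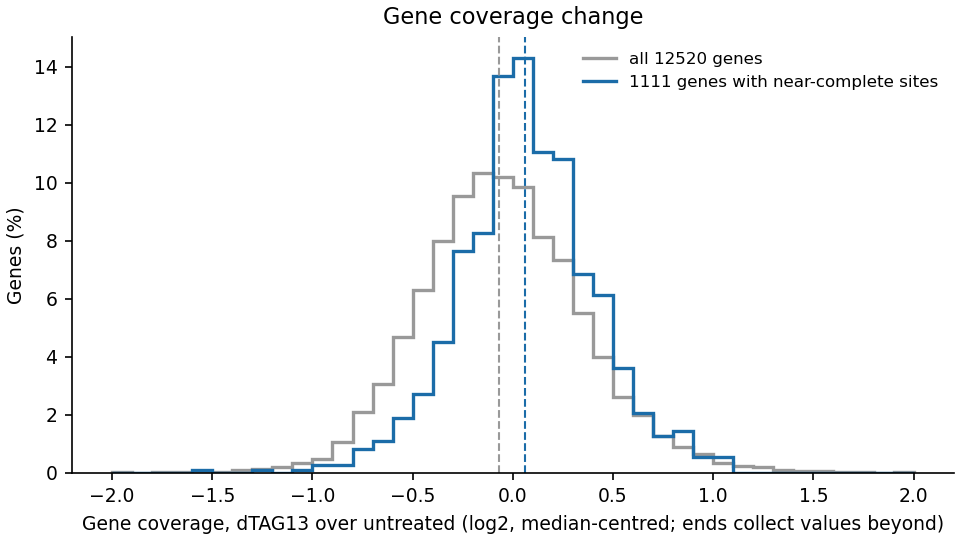
Distribution of the log2 difference in gene coverage, dTAG13 minus untreated after centring each library on its median gene (horizontal axis), as percent of genes (vertical axis), for all 12520 genes in grey and the 1111 genes with near-complete sites in blue. Dashed lines mark the medians, -0.07 for all genes and 0.06 for the genes with near-complete sites.

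Other sites of the same genes were also listed less often with dTAG13. Leaving out the members, 29979 and 32240 sites were listed in the 1155 genes in the untreated libraries, against 21105 and 23971 after dTAG13, or 31110 ± 1599 and 22538 ± 2027 (SD, n = 2 each). The ratio of 0.724 was close to the 0.708 of other genes of the same kind, and the difference between groups exceeded the spread within either. In an exact permutation test (two-sided) p was 0.33, the smallest possible with 2 libraries a group. Restricted to other sites at 40% or more, the ratio was 0.745 in genes with members and 0.785 elsewhere, and at 10 to 40% it was 0.710 and 0.667.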

How the data were processed

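GLORI libraries of polyA RNA were deposited as 1 table of called sites per library, with replicates not pooled. The deposited counts are the numbers of A and G reads, and of A reads, per position, not normalised. The level is the fraction of A that the authors deposited per position. They also deposited the conversion rate of each gene as a fraction, and a coverage signal with 1 unnormalised value per gene. The p-value columns deposited by the authors were not used. The submitters' processing notes name mm10, but the tables hold 2 contig names of GRCm39 and only 11.0% of the members lay inside the GRCm38 interval of their gene, so coordinates follow the tables, with the build unsettled. The aligner, the caller, duplicate handling and use of strand are not given in the sources used here. No genome was used here, so motifs, exons and UTRs were not assigned, and no sequence is shown.

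Groups came from the sample titles. Levels at sites listed in all libraries were tested with a quasi-binomial logistic model per site, its dispersion moderated with squeezeVar of limma 3.58.1 (R 4.3.3) and held at 1 or above, with Benjamini-Hochberg adjustment over all sites. Gene coverage was tested with limma, and edgeR 4.0.16 was an alternative for levels. Shares have Wilson 95% intervals (statsmodels 0.14.6). Both models were tested on simulated data. Alternatives were the read minimum, the level threshold, matching within 5 nt, gene coverage, other tests, the replicate block and leaving out each library.

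The members and gene lists were chosen with earlier results of these data known. The text names the 10 members with the most reads in the shallower untreated library, the 10 widest and 5 narrowest differences at 50 or more reads, the 5 genes with the most members, the 3 closest pairs, and members in the gene lists. RefSeq names came from assembly GRCm38.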

Additional observations from a re-analysis of the deposited data

How the results depend on the processing

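Limits of the call shape these results: a site is seen only when listed, replicates share few sites, and at 20 reads a level of 90% rests on 2 G reads. The number of near-complete sites, 1363, became 557 at 50 reads or more, and lay between 1109 and 1750 at a level of 95% or 80% and at 15 reads. The mean share listed with dTAG13, 12.4%, became 18.9% at 50 reads or more and 16.4% when any listed site within 5 nt counted, and was 11.9% and 12.8% without either dTAG13 library. The recovery ratio, 0.287, became 0.267 at 50 reads or more, 0.438 within 5 nt, 0.356 at sites with a covered neighbour (an alternative added after the data were seen), and 0.268 to 0.306 without 1 dTAG13 library. It had no value without an untreated library, as no background is left, and it was 1.63 in the opposite direction. For levels, 53 sites called (51 lower) became 531 (295 lower and 236 higher) with Fisher's exact test on summed reads, which ignores the spread between replicates, and 0 without any 1 library. With replicate number as a block 0 sites were called, with 196 at an unadjusted p under 0.05. Same-numbered libraries did not deviate together (correlation 0.04 for levels and 0.00 for coverage), so the numbers were not taken as pairing. The block left the coverage count at 0, with 1495 genes at an unadjusted p under 0.05. The median coverage difference of 0.06 was -0.019 without centring and 0.06 to 0.07 without 1 library. No alternative for other sites moved their ratio of 0.724 beyond 0.678 to 0.771. The cause of these shifts was not tested.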

Other observations

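Long noncoding RNAs made up few of the members, and their values are given here after being seen. Tug1, a widely expressed nuclear transcript, held a site at chr11:3590213 (minus strand) at 97.4% and 98.3% without dTAG13 and at 74.3% and 25% with it. A second Tug1 site, at chr11:3592567, stood at 100% and 99.6% and at 15.9% in dTAG13 replicate 2. Dancr held a site at 100% in both untreated libraries that was unlisted with dTAG13, where its gene coverage was 277 and 315 against 141 and 173. The log2 difference in Dancr coverage was 1.00 ± 0.22 (SE), with an adjusted p of 0.363 in limma.

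At 4 of the 60 sites listed in all 4 libraries, dTAG13 replicate 1 had only A reads while dTAG13 replicate 2 was below 60%. These lay in Chst14 (100% over 19 reads and 20.4% over 181), Slc25a36 (100% over 46 and 42.0% over 69), Urgcp (100% over 57 and 38.6% over 57) and Tm9sf1 (100% over 26 and 55.5% over 443). All 4 stood at 93.3% or more in both untreated libraries.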
